A study of Mus musculus with 6 samples.

Results

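Krüppel-like factors (KLFs) are transcription factors that bind GC-rich and CACCC-containing DNA through zinc fingers at the C-terminal end of the protein. The expression of 10 KLF genes, *Klf2*, *Klf3*, *Klf4*, *Klf5*, *Klf6*, *Klf7*, *Klf9*, *Klf10*, *Klf11*, and *Klf13*, was examined in mouse bone marrow–derived macrophages. They are 10 of the 34787 gene names on the array and were taken by gene name, with all 12 of their probes among 55681. The macrophages came from female wild-type C57BL/6 mice, 6 to 8 weeks old according to the sample labels, although the methods of the study give an older age range, and were grown for 7 days in medium conditioned by L929 cells. Cells of 3 groups were compared: untreated cells, cells given lipopolysaccharide (LPS, a ligand of TLR4) for 4 h, and cells given HBX41,108, an inhibitor of the deubiquitinase USP7, at 10 μM for 30 min before the same LPS treatment (LPS+USP7i). The LPS dose is 100 ng/ml in the description of the series and 100 ng/μl in the treatment protocol of the labels. Whether the solvent of the inhibitor was also added to the LPS group is not said in the sources used here, and there was no group given the inhibitor without LPS. Each group had 2 arrays, described as coming from independent experiments, so all values have limited precision.

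KLF proteins are commonly divided by the cofactors they recruit. KLF2, KLF4, KLF5, KLF6, and KLF7 mainly act as activators and recruit acetyltransferases, KLF3 recruits the corepressor CtBP, and KLF9, KLF10, KLF11, and KLF13 recruit the corepressor SIN3A. In macrophages KLF2 is known as a brake on inflammatory activation, KLF4 for its part in monocyte differentiation and alternative activation, and KLF6 for promoting inflammatory gene expression.

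The array measured each gene with probes of 60 bases, placed by the array files on the mm9 build. The signals of *Klf7* (chr1:64082265-64082324), *Klf9* (chr19:23240410-23240469), and *Klf10* (chr15:38224255-38224314), which moved most with the inhibitor, each came from 1 probe. Because KLF genes share a conserved zinc finger region, the probes of *Klf5* (chr14:99702656-99712388, across an intron) and *Klf13* (chr7:71082854-71082913), which lie in that coding region, are shown 5′ to 3′ with the longest run they share, 8 bases, in capitals:
*Klf5*: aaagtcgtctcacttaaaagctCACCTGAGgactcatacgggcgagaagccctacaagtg
*Klf13*: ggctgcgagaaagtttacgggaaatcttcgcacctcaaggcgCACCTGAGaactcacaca
Of the 12 KLF probes, 9 shared no run of 15 or more bases with a probe of another gene. The other 3 did, and the longest such run was 18 of 60 bases, in the *Klf7* probe.

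RefSeq promoters of 300 bases (GRCm38.p6, 250 bases before and 50 after the start of the gene) were at hand for 8 of the 10 genes. The 250 bases before the start are shown for *Klf3* and *Klf7*, which LPS raised, and for *Klf9*, which LPS lowered. Each is printed 5′ to 3′ on the strand of its gene, with capitals for every match, on either strand, to CCACCC or CCCCGCCC, sequences that KLF proteins bind.
*Klf3*, chr5:64803271-64803520, + strand: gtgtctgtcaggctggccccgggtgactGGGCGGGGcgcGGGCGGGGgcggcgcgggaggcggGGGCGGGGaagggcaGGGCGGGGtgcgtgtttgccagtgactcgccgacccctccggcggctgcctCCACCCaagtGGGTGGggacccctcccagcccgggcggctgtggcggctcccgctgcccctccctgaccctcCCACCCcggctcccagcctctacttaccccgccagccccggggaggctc
*Klf7*, chr1:64121390-64121639, - strand: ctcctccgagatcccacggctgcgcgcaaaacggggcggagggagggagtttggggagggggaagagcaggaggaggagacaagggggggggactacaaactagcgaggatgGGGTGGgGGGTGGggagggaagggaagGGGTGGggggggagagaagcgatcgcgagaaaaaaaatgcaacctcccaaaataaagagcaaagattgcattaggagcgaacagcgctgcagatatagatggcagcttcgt
*Klf9*, chr19:23140976-23141225, + strand: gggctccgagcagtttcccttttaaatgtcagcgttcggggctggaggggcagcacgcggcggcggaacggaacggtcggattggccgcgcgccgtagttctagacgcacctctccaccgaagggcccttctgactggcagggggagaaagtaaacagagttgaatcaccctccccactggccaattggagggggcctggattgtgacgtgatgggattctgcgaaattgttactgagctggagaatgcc
The shown stretch of *Klf3* held 3 matches to CCACCC and 4 to CCCCGCCC, that of *Klf7* held 3 matches to CCACCC and 0 to CCCCGCCC, and that of *Klf9* held 0 of both. These 3 do not stand for all raised or lowered genes. In the full promoters, *Klf6*, which LPS raised, held 0 of both, and *Klf13*, which LPS lowered, held 1 match to CCACCC and 2 to CCCCGCCC. *Klf2* also held 1 and 2, *Klf4* 0 and 4, and *Klf11* 0 and 2. Over the full 300 bases, CCACCC was found in 4 of the 8 KLF promoters and in 31.5% of all 32851 promoters. CCCCGCCC was found in 5 of the 8 and in 17.6% of all promoters, and the 2 motifs overlapped each other in *Klf13* (1 promoter). A MEF2 site, a κB site, and a CArG box, each searched in 1 form of 10 letters, were found in 0 of the 8 KLF promoters and in 0.11%, 1.63%, and 0.0639% of all promoters. The median GC content was 70.7% in the 8 KLF promoters and 52.7% in all promoters. These matches describe letters and are not evidence of binding.

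All arrays lay on 1 slide read in 1 scan. Each slide position has 2 numbers. The last number was 1, 2, and 4 for the untreated, LPS, and LPS+USP7i arrays, so it and treatment cannot be told apart. The first number was 1 for replicates 1 and 2 for replicates 2, so it and the replicate number cannot be told apart either. Over 20721 probes that were well above background throughout, the SD of the difference between replicates on the log2 scale was 0.29 for the untreated, 0.34 for the LPS, and 0.40 for the LPS+USP7i arrays. All 8 macrophage markers examined were well above background on every array, and the probe of *Csf1r* had the highest mean signal, although signals of different probes do not rank the amounts of their RNAs. Their summed signal on the log2 scale was 19.48 and 19.46 in untreated cells, 19.47 and 19.51 after LPS, and 19.26 and 19.16 in LPS+USP7i cells. With LPS, *Cd14* was higher (1.69) and *Itgam* lower (−0.66) by its probe with the highest mean signal. Further *Itgam* probes, well above background on every array, had −0.48 (adjusted p = 0.228) and −0.0019 with LPS, and neither passed. With the inhibitor in LPS cells, 2 of these 8 markers, *Cd14* (−1.31) and *Fcgr1* (−1.60), were lower and 0 were higher. Against untreated cells *Fcgr1* alone passed, lower by 1.26. A further *Cd68* probe was also well above background on every array. It was lower with LPS (−0.43, adjusted p = 0.0185) and higher with the inhibitor in LPS cells (0.43, adjusted p = 0.0332). All 6 neutrophil markers were also well above background on every array, with the highest mean signal for *Elane*. Their summed log2 signal was 12.35 and 12.74 in untreated cells, 12.51 and 13.48 after LPS, and 12.60 and 13.22 in LPS+USP7i cells, and 0 of the 6 passed the test in any comparison. The sum hides wide replicate differences in some of these genes, which limit what that test could find. In the same order, *S100a9* read 7.68 and 10.72, 9.54 and 12.38, and 8.35 and 11.57. *Mpo* read 8.39 and 6.45, 8.65 and 6.67, and 6.49 and 4.84 by its probe with the highest mean signal. The part of these markers in the KLF results was not tested. Of 28 genes that mark 8 other cell types, 27 were on the array, 6 were well above background on every array, and 8 on none. Among them *Zbtb46*, a dendritic cell gene, was higher with LPS, *Epor* was lower, and 0 passed with the inhibitor in LPS cells. These arrays measure RNA from whole cultures, in which fewer cells of a type and less RNA per cell cannot be told apart.

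Of the 10 KLF genes, 8 were well above background on all 6 arrays. The untreated arrays gave no signal well above background for *Klf5*, and *Klf11* was above it on the untreated arrays only. In LPS compared with untreated cells, 3 KLF genes (*Klf3*, *Klf6*, and *Klf7*) were higher and 3 (*Klf9*, *Klf10*, and *Klf13*) were lower at an adjusted p value under 0.05, and 4 passed in neither direction. Over all 55680 probes tested, 7.09% were higher and 10.7% were lower, and over the 25084 brighter probes (well above background on both arrays of 1 or more groups) the shares were 14.1% and 21.8%. In LPS+USP7i compared with LPS, 2 KLF genes (*Klf9* and *Klf10*) were higher and 1 (*Klf7*) was lower, beside 4.66% and 3.79% of all probes and 9.31% and 7.4% of the brighter ones. In LPS+USP7i compared with untreated cells, 2 (*Klf6* and *Klf7*) were higher and 2 (*Klf10* and *Klf13*) were lower, beside 5.65% and 7.34% of all probes and 11.3% and 14.8% of the brighter ones. The 3 comparisons share arrays and are not independent. The arrays of the groups compared did not overlap for 9 of the 10 genes in LPS and untreated cells, for 7 in LPS+USP7i and LPS cells, and for 9 in LPS+USP7i and untreated cells. Over all probes with a value on every array compared, the shares without overlap were 57.3%, 49.8%, and 56.2%. The median log2 difference of the 10 genes was −0.39 for LPS, 0.027 for the inhibitor in LPS cells, and 0.31 for LPS+USP7i against untreated cells, with medians of 0.0045, −0.00098, and 0.00027 over all probes. Over the brighter probes these medians were −0.18, 0.056, and −0.087.

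**Figure D1:**
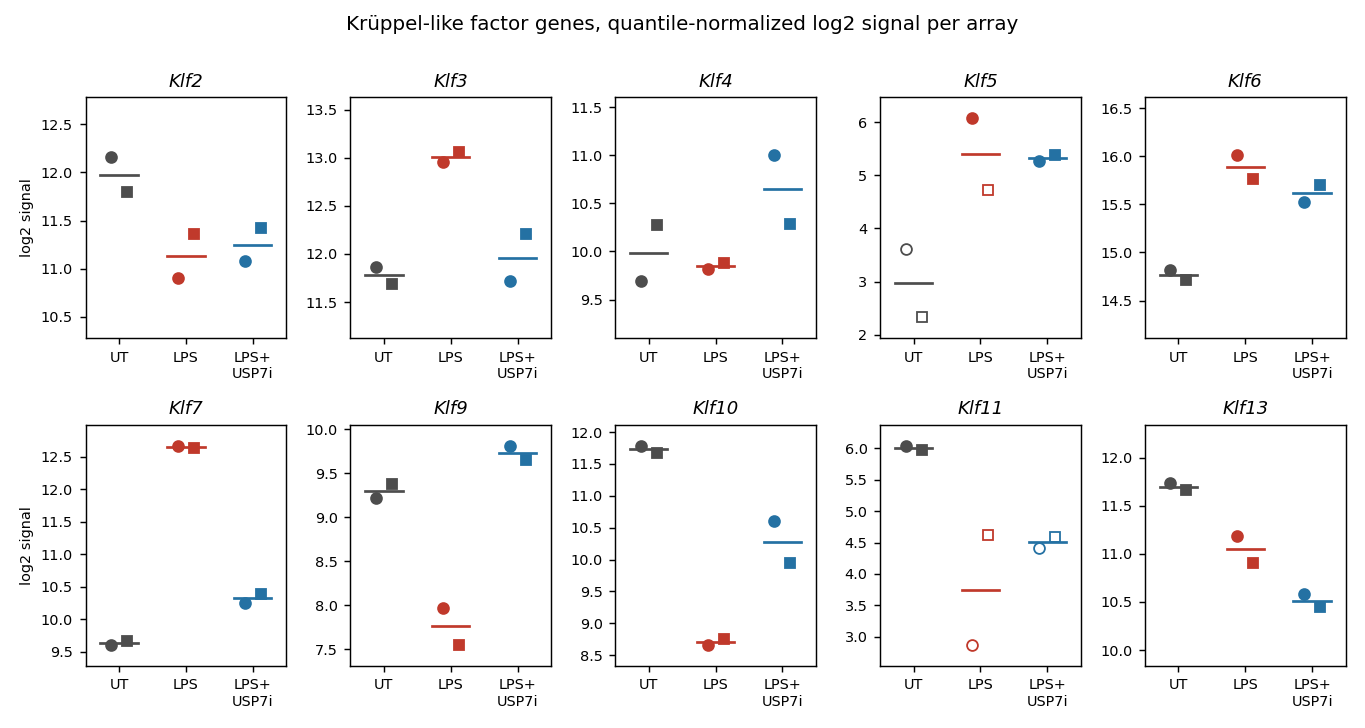
The vertical axes give the quantile-normalized log2 signal of each KLF gene (its probe with the highest mean signal) in untreated (UT), LPS, and LPS+USP7i cells. Circles are replicate 1, squares replicate 2, lines the means, open symbols arrays on which the probe was not well above background, and each gene has its own scale. *Klf7* lies at 12.67 and 12.64 with LPS and below 10.4 on the other 4 arrays, while *Klf9* and *Klf10* are lowest on the 2 LPS arrays.

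Leaving out single arrays moved these counts and the genes that made them up. Without LPS replicate 2, *Klf11* took the place of *Klf10* among the genes higher with the inhibitor. Without LPS replicate 1 or 2 it also did so among the genes lower in LPS+USP7i than in untreated cells. The *Klf11* probe was not well above background on the treated arrays. With untreated replicate 1 or 2 left out, 1 KLF gene was higher and 1 was lower with LPS in each case, and 0 passed in either comparison of LPS+USP7i cells. This was not particular to the KLF genes, since in the same fits 0 of all probes passed for the inhibitor in LPS cells. Over all probes, the fit without untreated replicate 1 had 1931 higher and 2852 lower with LPS and 910 and 1371 for LPS+USP7i against untreated cells, and the fit without untreated replicate 2 had 1632 and 2385, then 680 and 877. In those fits limma gave an unadjusted p under 0.05 for the inhibitor in LPS cells to 3 lower and 2 higher KLF genes both times. Against untreated cells it gave one to 2 lower and 3 higher genes without untreated replicate 1, and to 2 lower and 2 higher without untreated replicate 2. With LPS replicate 1 left out, or LPS+USP7i replicate 1, 1 gene in place of 2 was higher with the inhibitor, and with LPS+USP7i replicate 2 left out 2 in place of 1 were lower. Against untreated cells, 1 gene in place of 2 was higher without LPS+USP7i replicate 1 and without LPS+USP7i replicate 2, and 1 in place of 2 was lower without LPS+USP7i replicate 2. Fits of only the 2 groups compared gave 0 KLF genes and 0 of all probes for the inhibitor in LPS cells, with, for the KLF genes, a smallest adjusted p of 0.0561 and 3 lower and 2 higher genes at an unadjusted p under 0.05. With 2 arrays against 2, the smallest two-sided p of an exact permutation test is 0.333, so that test could not reach the threshold for any gene.

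Among the activators, *Klf7*, named for its ubiquitous expression and known in neurons and adipocytes, had log2 signals of 9.60 and 9.67 in untreated cells, 12.67 and 12.64 after LPS, and 10.25 and 10.39 in LPS+USP7i cells. The 3 groups did not overlap, the LPS arrays were highest, and the inhibitor-treated arrays lay between the other groups, nearer to untreated cells. *Klf7* was 8.11-fold higher with LPS (log2 difference 3.02, standard error 0.08, adjusted p = 0.00245). It was 5.04-fold lower in LPS+USP7i than in LPS (log2 difference −2.33, standard error 0.08, adjusted p = 0.00987) and remained 1.61-fold above untreated cells (log2 difference 0.69, adjusted p = 0.0153). The rise with LPS passed with any 1 array left out, with a highest adjusted p of 0.0297. Without untreated replicate 1 or 2, the difference with the inhibitor had an adjusted p of 0.0561 in each case, and that between LPS+USP7i and untreated cells had 0.0827 and 0.0764, and 0.0701 with the deposited normalized values. Over all alternatives the adjusted p values of the 3 differences ranged from 1.12e-05 to 0.0297, from 0.000257 to 0.0561, and from 0.00383 to 0.0827.

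*Klf6*, an early response gene, had log2 signals of 14.81 and 14.72 in untreated cells, 16.01 and 15.76 after LPS, and 15.53 and 15.70 in LPS+USP7i cells. Both treated groups lay above untreated cells on every array, and the 2 inhibitor arrays lay just below the lower LPS array. *Klf6* was 2.18-fold higher with LPS (log2 difference 1.12, standard error 0.12, adjusted p = 0.0110) and 1.80-fold higher in LPS+USP7i than in untreated cells (0.85, adjusted p = 0.0260). The difference between LPS+USP7i and LPS was −0.27 (95% confidence interval −0.61 to 0.071, adjusted p = 0.330). The rise with LPS had adjusted p values of 0.0574 and 0.0692 without untreated replicate 1 and 2. That in LPS+USP7i cells had 0.104 and 0.126 without these arrays and 0.0636 and 0.0863 without LPS+USP7i replicate 1 and 2, and 0.0525 with the replicate number as a block. The ranges over all alternatives were 0.00117 to 0.0692 and 0.00426 to 0.126.

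*Klf2* had log2 signals of 12.16 and 11.79 in untreated cells, 10.90 and 11.36 after LPS, and 11.07 and 11.42 in LPS+USP7i cells. All 4 treated arrays lay below both untreated arrays, and the LPS and LPS+USP7i arrays overlapped. The difference was −0.85 for LPS (standard error 0.25, adjusted p = 0.106) and −0.73 for LPS+USP7i against untreated cells (adjusted p = 0.170), and neither passed the threshold. The first passed after normexp background correction (adjusted p = 0.00757), in the deposited normalized values (0.0379), and without the dim probes (0.0354), in a range over all alternatives of 0.00757 to 0.331. The other passed after normexp background correction (0.0225), in a range of 0.0225 to 0.473. The inhibitor in LPS cells gave 0.12 (95% confidence interval −0.56 to 0.80, adjusted p = 0.868).

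*Klf4* had log2 signals of 9.70 and 10.27 in untreated cells, 9.82 and 9.88 after LPS, and 11.01 and 10.28 in LPS+USP7i cells. The LPS arrays lay within the range of the untreated arrays, and both inhibitor arrays lay above the other 4, replicate 2 by only a small margin. The differences were −0.13 for LPS (adjusted p = 0.916), 0.79 for the inhibitor in LPS cells (standard error 0.33, adjusted p = 0.282), and 0.66 for LPS+USP7i against untreated cells (adjusted p = 0.352). *Klf4* passed the threshold in 0 of its alternatives in any comparison.

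*Klf5*, best known in epithelial and smooth muscle cells, had log2 signals of 3.61 and 2.33 in untreated cells, 6.07 and 4.73 after LPS, and 5.28 and 5.39 in LPS+USP7i cells. Its probe was measured well above background on both LPS+USP7i arrays and on 1 of 2 LPS arrays. Set against the lowest signals that counted as well above background, and on the scale of the fit reported, *Klf5* was at least 2.81-fold higher with LPS (adjusted p = 0.0894) and at least 2.68-fold higher with LPS+USP7i (adjusted p = 0.113), and neither passed. These bounds do not hold for other processing, since the log2 differences were 1.253 and 1.083 in the deposited values and 0.52 and 0.42 with normexp background correction. With dim probes left out these adjusted p values were 0.0213 and 0.0282, and with 75th percentile scaling 0.0424 and 0.0394, in ranges over all alternatives of 0.0213 to 0.269 and 0.0282 to 0.318. The LPS and LPS+USP7i arrays overlapped.

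*Klf3*, the CtBP-recruiting repressor of the set, had log2 signals of 11.86 and 11.69 in untreated cells, 12.95 and 13.06 after LPS, and 11.71 and 12.21 in LPS+USP7i cells. Both LPS arrays lay above all others, and the inhibitor-treated arrays overlapped the untreated ones. *Klf3* was 2.35-fold higher with LPS (log2 difference 1.23, standard error 0.19, adjusted p = 0.0246). This did not pass without untreated replicate 1 or 2 (adjusted p = 0.0935 and 0.121) or without LPS replicate 1 or 2 (0.0977 and 0.104), in a range over all alternatives of 0.00145 to 0.121. In LPS+USP7i compared with LPS the difference was −1.05 (standard error 0.19), lower on both arrays, and its adjusted p of 0.0576 missed the threshold. It passed with normexp background correction (0.00437), with the deposited normalized values (0.0316), with dim probes left out (0.0173), with a trended prior (0.0401), and without LPS+USP7i replicate 2 (0.0349), in a range over all alternatives of 0.00437 to 0.187. The difference between LPS+USP7i and untreated cells was 0.19 (adjusted p = 0.674).

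Among the SIN3A-recruiting repressors, *Klf10*, an early response gene to TGF-β, had log2 signals of 11.78 and 11.68 in untreated cells, 8.66 and 8.76 after LPS, and 10.61 and 9.95 in LPS+USP7i cells. The groups did not overlap, with untreated cells highest, LPS cells lowest, and LPS+USP7i cells between them. *Klf10* was 8.11-fold lower with LPS (log2 difference −3.02, standard error 0.24, adjusted p = 0.00618), which passed with any 1 array left out (highest adjusted p = 0.0458). It was 2.97-fold higher in LPS+USP7i than in LPS (log2 difference 1.57, adjusted p = 0.0409) and stayed 2.73-fold below untreated cells (log2 difference −1.45, adjusted p = 0.0360). The first of these 2 differences had adjusted p values of 0.112 without untreated replicate 1 or 2 and of 0.155 and 0.133 without LPS replicate 1 and 2. The other had 0.154 and 0.141 without untreated replicate 1 and 2 and 0.0932 without LPS replicate 1 or 2. Fits of 2 groups gave 0.112 and 0.0933. With the replicate number as a block neither passed (adjusted p = 0.0629 and 0.0530). Over all alternatives the 3 adjusted p values ranged from 0.000203 to 0.0458, from 0.00608 to 0.155, and from 0.00418 to 0.154.

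*Klf9*, which is known as a target gene of glucocorticoid and thyroid hormone receptors, had log2 signals of 9.22 and 9.38 in untreated cells, 7.97 and 7.55 after LPS, and 9.81 and 9.65 in LPS+USP7i cells. The LPS arrays were lowest, and both inhibitor-treated arrays lay above the untreated ones. *Klf9* was 2.92-fold lower with LPS (log2 difference −1.55, standard error 0.17, adjusted p = 0.0116) and 3.93-fold higher in LPS+USP7i than in LPS (1.97, standard error 0.17, adjusted p = 0.0172). LPS+USP7i and untreated cells differed by 0.43 (95% confidence interval −0.055 to 0.91, adjusted p = 0.247), which did not pass. Without untreated replicate 1 or 2, the decrease with LPS had adjusted p values of 0.0580 and 0.0711 and the increase with the inhibitor had 0.0655 both times. Without LPS+USP7i replicate 1 the latter had 0.0643, and with fits of 2 groups 0.0655. The ranges over all alternatives were 0.0010 to 0.0711 and 0.000896 to 0.0655.

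*Klf11* had log2 signals of 6.04 and 5.98 in untreated cells, 2.87 and 4.63 after LPS, and 4.42 and 4.59 in LPS+USP7i cells. Untreated arrays were highest, and on the 4 treated arrays the probe was not well above background. On the scale of the fit reported, *Klf11* was at least 2.78-fold lower with LPS (adjusted p = 0.0946). With LPS+USP7i both arrays lay above the lowest signals well above background, so no bound is given. The fitted log2 difference was −1.50 (95% confidence interval −3.22 to 0.22, adjusted p = 0.254). Neither difference passed the threshold. Here too the sizes depend on the processing, with log2 differences of −1.06 and −0.91 in the deposited values and −0.53 and −0.52 with normexp background correction. Leaving out LPS replicate 1 or 2 gave adjusted p values of 0.0256 and 0.0185 for LPS and of 0.0271 both times for LPS+USP7i, over ranges of 0.0161 to 0.277 and 0.0216 to 0.528 in all alternatives. LPS+USP7i and LPS differed by 0.76 (adjusted p = 0.587), and by 1.64 without LPS replicate 2, but the probe was not well above background in either of these groups.

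*Klf13*, known for regulating *Ccl5* late in T cell activation, was measured with 3 probes. The probe with the highest mean signal had log2 signals of 11.73 and 11.66 in untreated cells, 11.19 and 10.91 after LPS, and 10.58 and 10.44 in LPS+USP7i cells, so that the groups fell in that order without overlap. By this probe *Klf13* was 1.57-fold lower with LPS (log2 difference −0.65, standard error 0.12, adjusted p = 0.0385) and 2.27-fold lower with LPS+USP7i than in untreated cells (−1.18, adjusted p = 0.0138). LPS+USP7i and LPS differed by −0.53 (adjusted p = 0.0905), which did not pass. The decrease with LPS passed with 1 of the 6 arrays left out in turn, LPS replicate 1, and otherwise its adjusted p lay between 0.0731 and 0.160. It was 0.0641 with the deposited normalized values and 0.0731 with fits of 2 groups, in a range over all alternatives of 0.0109 to 0.160. The decrease with LPS+USP7i did not pass without untreated replicate 1 or 2 (adjusted p = 0.0775 and 0.0750) or without LPS+USP7i replicate 2 (0.0551), in a range of 0.00213 to 0.0775.

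A further *Klf13* probe (chr7:71032482-71032541) read 11.47 and 11.53 in untreated cells, 10.46 and 10.72 after LPS, and 9.59 and 10.28 in LPS+USP7i cells. It had the same order of groups, with differences of −0.91 for LPS (adjusted p = 0.108), −0.66 for the inhibitor in LPS cells (adjusted p = 0.271), and −1.57 for LPS+USP7i against untreated cells (adjusted p = 0.0369). The last did not pass without untreated replicate 1 or 2 (0.146 and 0.158) or without LPS replicate 1 or 2 (0.0877), nor with fits of 2 groups (0.0877), in a range of 0.00527 to 0.158. The difference for LPS passed without LPS+USP7i replicate 1 or 2 and with fits of 2 groups (0.0363), with normexp background correction (0.0377), and with dim probes left out (0.0348), in a range of 0.0348 to 0.321. The remaining *Klf13* probe (chr7:71036675-71069606, across an intron) was below that level on all 6 arrays, so the probes did not all give a level for the gene.

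**Figure D2:**
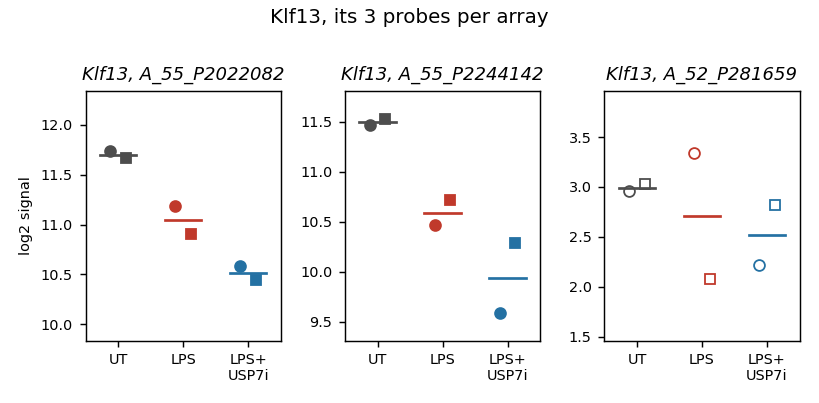
The vertical axes give the log2 signal of the 3 *Klf13* probes in untreated (UT), LPS, and LPS+USP7i cells, each probe on its own scale, with circles for replicate 1, squares for replicate 2, and lines for means. The first and middle panels fall from untreated to LPS to LPS+USP7i cells, and the right panel has only open symbols, which stand for signals not well above background.

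Side by side, *Klf7* had log2 differences of 3.02 with LPS and −2.33 with the inhibitor, *Klf9* had −1.55 and 1.97, and *Klf10* had −3.02 and 1.57, and in these 3 genes both differences passed. *Klf3* had 1.23 and −1.05, *Klf6* 1.12 and −0.27, and *Klf13* −0.65 and −0.53, and the difference with the inhibitor did not pass. Because both differences are taken from the same LPS arrays, an error in those arrays enters them with opposite signs, and opposite signs are expected for many probes even without an effect of either treatment. The signs are therefore not read as a reversal. The sign of every KLF difference that passed was the same in each of its alternatives, the 75th percentile scaling included. That scaling moved the median of all probes to 0.51 for LPS and 0.55 for LPS+USP7i against untreated cells, while the medians of the KLF genes were −0.26 and 0.40 and those of the brighter probes 0.045 and 0.094. With it, as with quantile normalization, 4 KLF genes were above 0 and 6 below 0 for LPS.

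**Figure D3:**
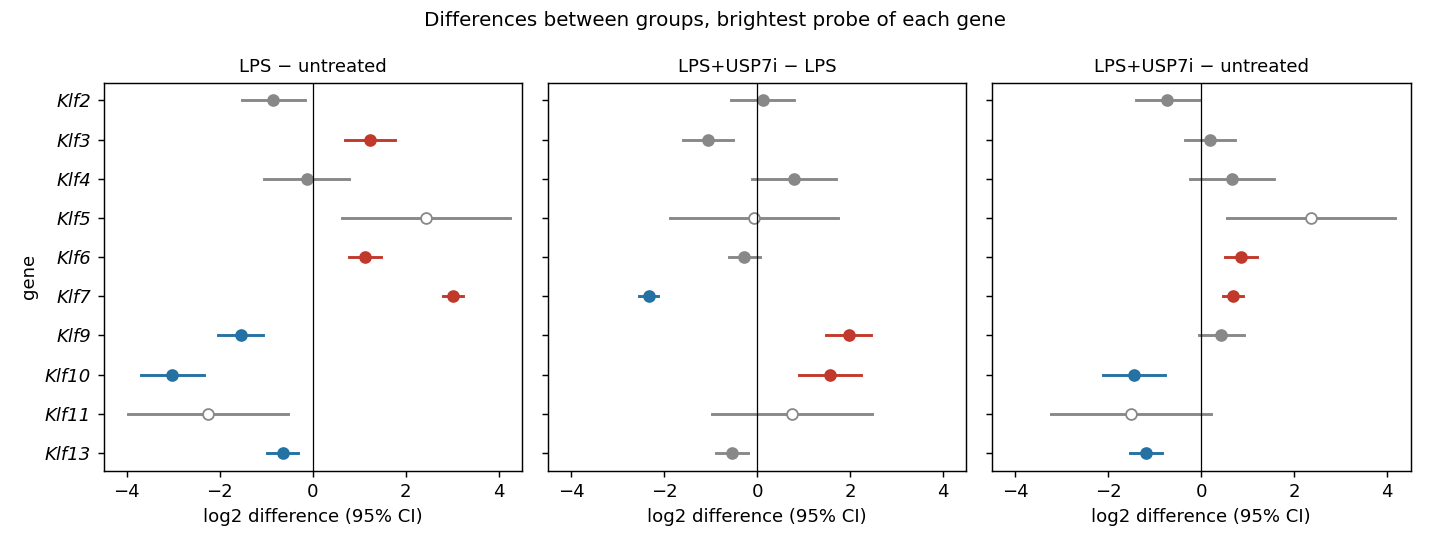
The horizontal axes give the log2 difference and its 95% confidence interval for each KLF gene (vertical axis) in the 3 comparisons, with red for higher and blue for lower at an adjusted p under 0.05, gray for neither, and open symbols for the 2 genes not well above background on every array. *Klf7* and *Klf10* lie at 3.02 and −3.02 with LPS and at −2.33 and 1.57 with the inhibitor, and under 75th percentile scaling only *Klf5* in the middle panel changed sign.

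Of the 16 other genes of the KLF and SP families, 7 were well above background on all arrays and 6 on no array. With LPS, *Klf8*, a CtBP-recruiting relative of *Klf3*, was higher by a log2 difference of 2.99 (adjusted p = 0.0174), with signals of 7.66 and 7.97 in untreated cells, 10.82 and 10.80 after LPS, and 8.10 and 9.20 in LPS+USP7i cells. Its difference with the inhibitor was −2.16 (adjusted p = 0.0593) and did not pass. *Sp6* was also higher with LPS, and *Klf16*, *Sp1*, *Sp3*, and *Sp8* were lower, with log2 differences between −1.77 (*Sp3*) and −0.60 (*Klf16*). With the inhibitor *Sp3* was higher (0.66, adjusted p = 0.0289) and *Sp6* was at least 1.83-fold lower (adjusted p = 0.0168). Of 10 cofactors, *Hdac1* was higher with LPS (0.82) and lower with the inhibitor (−0.77, adjusted p = 0.0342), and *Ctbp1*, the partner of KLF3, was lower with LPS (−0.66, adjusted p = 0.0115). *Ctbp1* and *Ep300* were lower in LPS+USP7i than in untreated cells. Among 6 genes of ubiquitin ligases reported to act on KLF proteins, *Smurf1* was higher with LPS (1.22, adjusted p = 0.0190), *Wwp1* was lower (−1.09, adjusted p = 0.0440) by 1 of its 2 probes (the other had −0.97, adjusted p = 0.143), and 0 passed with the inhibitor in LPS cells.

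The kinase cascade of MAP3K3, MAP2K5, and MAPK7 (ERK5) activates MEF2 factors, which induce *Klf2* and *Klf4* in endothelial cells. Of the 6 genes listed for this route, LPS lowered 5 (*Map3k3*, *Map2k5*, *Mapk7*, *Mef2c*, and *Mef2d*) and raised 1 (*Mef2a*), beside 21.8% lower and 14.1% higher among the brighter probes, and all 6 were well above background on every array. Further probes of *Map2k5* (−0.41, adjusted p = 0.150) and *Mef2d* (−0.96, adjusted p = 0.0956), well above background on every array, did not pass with LPS. The rise of *Mef2a* (1.34, adjusted p = 0.0370) rests on 1 of its 3 probes. The other 2, also well above background throughout, had −0.49 and −0.70 with LPS (adjusted p = 0.248 and 0.493), and the first of them was lower in LPS+USP7i than in untreated cells (−1.26, adjusted p = 0.0352). *Mapk7* had log2 signals of 12.37 and 12.25 in untreated cells, 10.31 and 10.22 after LPS, and 11.81 and 11.35 in LPS+USP7i cells, with adjusted p values of 0.00697 for LPS (−2.04) and 0.0318 for the inhibitor in LPS cells (1.32). *Mef2c* was lower with LPS (−1.06, adjusted p = 0.00401) and lower again with the inhibitor (−1.13, adjusted p = 0.0113). *Klf2* and *Klf4* themselves, described above, did not pass in any of these comparisons.

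Among genes reported as KLF targets, *Ccl5* and *Cdkn1a* were higher with LPS, and *Thbd*, *S1pr1*, *Smad7*, *Ccnd1*, and *Tgfbr1* were lower. A further *Tgfbr1* probe well above background on every array had −0.58 (adjusted p = 0.574). *S1pr1*, a KLF2 target in lymphocytes and endothelium, had log2 signals of 10.15 and 10.40 in untreated cells, 7.13 and 7.41 after LPS, and 9.0 and 8.70 in LPS+USP7i cells. It was lower with LPS (−3.00, adjusted p = 0.00402) and higher with the inhibitor (1.58, adjusted p = 0.0237). *Smad7*, reported to be repressed by KLF10, had 6.06 and 6.24, then 2.99 and 2.92, then 6.89 and 6.56 in the same order. It was not well above background in LPS cells, and was at least 3.17-fold lower with LPS (adjusted p = 0.00312) and at least 4.73-fold higher with the inhibitor (adjusted p = 0.0104). *Cdkn1a* was higher with LPS (2.49) and lower with the inhibitor (−1.06, adjusted p = 0.0347), although 1 of its 3 probes had 0.069 with the inhibitor (adjusted p = 0.977). *Ccl5* rose by a log2 difference of 5.31 with LPS (adjusted p = 0.00331). Both LPS arrays had the same *Ccl5* value, 18.43, because quantile normalization gives probes of equal rank the same signal. The replicate spread of *Ccl5* in LPS cells therefore reads as 0 and was not measured.

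**Figure D4:**
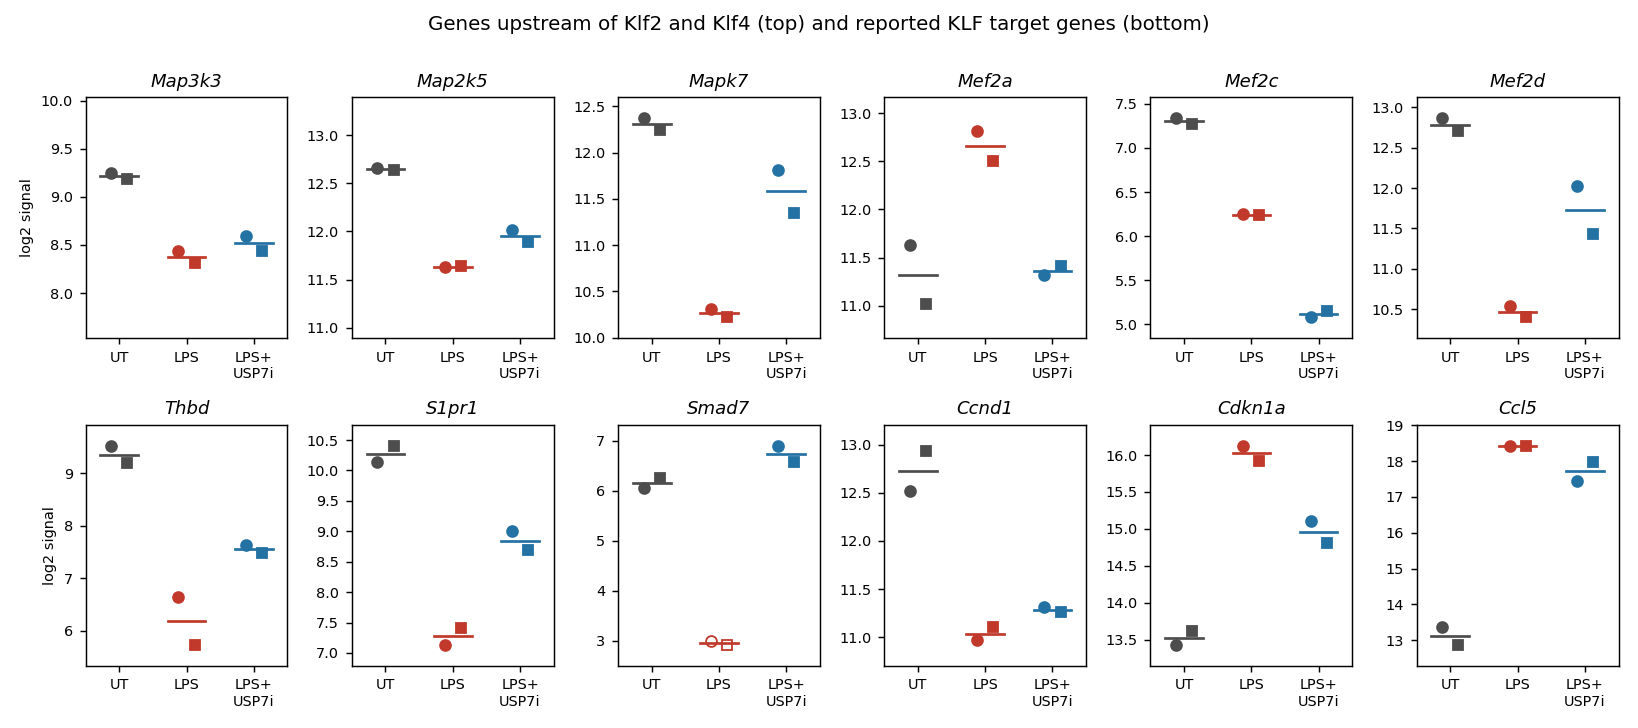
The vertical axes give the log2 signal of the 6 genes upstream of *Klf2* and *Klf4* (top) and of 6 reported KLF target genes (bottom) in untreated (UT), LPS, and LPS+USP7i cells, each on its own scale. Circles are replicate 1, squares replicate 2, lines means, and open symbols arrays not well above background, and *Mapk7*, *S1pr1*, and *Smad7* are lowest on the 2 LPS arrays.

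Over the 51 genes of these lists together, 8 were higher and 16 lower with LPS, 4 higher and 4 lower with the inhibitor in LPS cells, and 2 higher and 11 lower in LPS+USP7i than in untreated cells. Among the brighter probes the shares higher and lower were 14.1% and 21.8% with LPS, 9.31% and 7.4% with the inhibitor in LPS cells, and 11.3% and 14.8% in the last comparison, and among all probes 7.09% and 10.7%, 4.66% and 3.79%, and 5.65% and 7.34%. Of the listed genes, those higher in the last comparison were *Ccl5* and *Cdkn1a*, and those lower were *Sp3*, *Sp8*, *Ctbp1*, *Ep300*, *Map3k3*, *Map2k5*, *Mef2c*, *Wwp1*, *Thbd*, *S1pr1*, and *Ccnd1*. Further probes, well above background on every array, did not pass there for *Cdkn1a* (0.0078 in 1 of 3 probes, adjusted p = 1), *Map2k5* (0.15, adjusted p = 0.620), and *Wwp1* (−0.99, adjusted p = 0.157). The median log2 differences of the 51 genes were −0.22, 0.011, and −0.21. Without untreated replicate 1 or 2, the counts for LPS were 3 and 2 higher and 8 and 7 lower. Without LPS replicate 1 they were 3 higher and 9 lower, and without LPS replicate 2 they were 5 higher and 11 lower. For the inhibitor in LPS cells, 0 passed without untreated replicate 1 or 2, 1 higher and 1 lower without LPS replicate 1, and 1 higher and 3 lower without LPS replicate 2. Against untreated cells, the counts were 1 higher and 2 lower without either untreated array, and 5 were lower without LPS+USP7i replicate 2. As controls of the treatments, *Tnf* and *Il6* were higher with LPS by 7.61 and 11.86 on the log2 scale (adjusted p = 0.00152 and 0.00326). With the inhibitor in LPS cells *Tnf* was lower (−0.78, adjusted p = 0.0382), and *Il6* had −2.55 (adjusted p = 0.0831), which did not pass. *Usp7*, which encodes the target of the inhibitor, differed by 0.44 with LPS (adjusted p = 0.104) and by −0.14 with the inhibitor (adjusted p = 0.627). A further *Usp7* probe, well above background on every array, had the opposite signs, −0.11 (adjusted p = 0.760) and 0.14 (adjusted p = 0.681).

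For *Klf2*, *Klf4*, and *Klf6*, the genes with the nearest pattern over the 6 arrays were found by the root mean square difference of mean-centered log2 values among 11664 genes well above background on every array. Nearest to *Klf2* were *Hdac7* (0.099), *Cd101* (0.11), and *Oxr1* (0.12). Nearest to *Klf4* were *Sytl1* (0.11), *Npy* (0.15), and *Lat* (0.15). Nearest to *Klf6* were *Vmn1r25* (0.040), *Prnp* (0.078), and *Pogz* (0.081).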

How the data were processed

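The authors deposited scanner files with spot intensities from 1-color arrays, background-corrected by Agilent Feature Extraction 10.7.3.1, and a table of log2 values that the authors had normalized between arrays. The submitters' processing notes name limma, and the methods state a linear model after quantile normalization, with calls at an adjusted p value of 0.05. Here the processed signal was taken to log2 and quantile-normalized, control spots and outlier spots were left out, and spots of a probe were averaged. A linear model over all 6 arrays was fitted with lmFit and eBayes of limma 3.58.1 (R 4.3.3; 3 residual degrees of freedom), with Benjamini-Hochberg adjustment over 55680 probes. A gene is represented by its probe with the highest mean signal, and all KLF probes are given. A probe was well above background where the scanner software flagged most of its spots so. A bound ("at least") sets the mean of the measured group against that of the dim group, each dim array taken at the higher of its own value and its lowest signal well above background, and holds on the scale of the reported fit without regard to the spread of replicates. Named genes are the KLF genes, listed genes that passed, *Usp7*, *Tnf*, *Il6*, and the nearest genes to *Klf2*, *Klf4*, and *Klf6*. The KLF genes and all lists were chosen with earlier results of these data known. Alternatives were 75th percentile scaling, normexp background correction (offset 50), the deposited log2 values, dim probes left out, fits of 2 groups, a trended prior, outlier spots kept, each array left out, the replicate number as a block, a log2 difference of at least 1, and any probe of a gene.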

Additional observations from a re-analysis of the deposited data

How the results depend on the processing

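Over the 12 KLF probes and 3 comparisons, 501 differences were recomputed. Of these, 412 kept their direction and side of the threshold, 50 no longer passed, 28 newly passed, and 11 changed sign, none of them a difference that had passed. The cause was not tested, except that fits without an array or a group had fewer arrays to estimate the spread. A group left with 1 array was assumed to vary like the others. Signals near background limit *Klf5*, *Klf11*, and 1 *Klf13* probe.

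With LPS, 5 KLF genes were lower with normexp correction and 5 with dim probes left out (3 in the fit reported). For the inhibitor in LPS cells, 2 were lower with normexp correction, the deposited values, dim probes left out, or a trended prior (1 in the fit reported). Fits of 2 groups with limma gave 0 lower and 0 higher there, also over all probes and over the listed genes, against 5206 lower and 6051 higher probes at an unadjusted p under 0.05. Against untreated cells, 4 KLF genes were lower with normexp correction, 1 was higher with the deposited values, and 0 were higher with a log2 difference of at least 1.

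Of the 51 listed genes, 15 were higher with LPS under 75th percentile scaling. For the inhibitor in LPS cells, 8 were lower and 7 higher with normexp correction, 11 lower with dim probes left out, and 7 lower with a trended prior. Against untreated cells, 7 were higher with 75th percentile scaling, 4 with normexp correction, 4 with dim probes left out, and 7 were lower with a log2 difference of at least 1.

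No label pairs the arrays by replicate number, but it equals the first number of the slide position. The deviations of same-numbered arrays from their group means correlated (0.47, 0.40, and 0.42). With the replicate number as a block, 1 KLF gene was higher with the inhibitor in LPS cells, and 1 was lower and 1 higher against untreated cells, since *Klf10* did not pass in either comparison and *Klf6* did not pass against untreated cells. With the block, 2 listed genes were lower and 2 higher with the inhibitor in LPS cells.

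Over all probes, LPS raised 3948 and lowered 5947, against 21768 and 5669 with 75th percentile scaling, and LPS+USP7i against untreated cells gave 3147 higher and 4086 lower, against 21937 and 4605. For the inhibitor in LPS cells, 2109 were lower, against 3239 with normexp correction and 3287 with dim probes left out, and 2595 were higher, against 1548 with a log2 difference of at least 1. That limit also left 3136 lower with LPS and 2177 lower and 2096 higher against untreated cells, where fits of 2 groups gave 2690 lower and 1994 higher.

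With each array left out in turn, 1 to 4 KLF genes were lower and 1 to 3 higher with LPS, 0 to 2 lower and 0 to 2 higher with the inhibitor in LPS cells, and 0 to 2 lower and 0 to 2 higher against untreated cells. For the listed genes the ranges were 7 to 14 and 2 to 7, then 0 to 6 and 0 to 5, then 2 to 10 and 1 to 3. Over all probes they were 2385 to 5481 and 1632 to 3696, then 0 to 1703 and 0 to 2855, then 877 to 2690 and 680 to 2970. The sign changed in these ranges for the inhibitor in LPS cells in *Klf2* (−0.11 without LPS replicate 1 and −0.054 without LPS+USP7i replicate 2, up to 0.35), *Klf5* (−0.74 to 0.61), *Klf11* (−0.12 to 1.64), and the dim *Klf13* probe (−0.83 to 0.44, with 0.11 without LPS+USP7i replicate 1). It changed for *Klf3* against untreated cells (−0.061 to 0.43) and with LPS for *Klf4* (−0.42 to 0.16) and the dim *Klf13* probe (−0.91 to 0.35). Under 75th percentile scaling the sign changed for *Klf5* with the inhibitor in LPS cells (0.10) and for the dim *Klf13* probe with LPS (0.048).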
